A study of Caenorhabditis elegans with 8 samples.

Results

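Small RNA reads were examined at 10 genes that make piRNAs in the nematode Caenorhabditis elegans: prde-1, snpc-4, tofu-4, tofu-5, tofu-6, ife-3, pid-1, tofu-1, parn-1 and henn-1. They were taken by name from the 20191 genes of the count tables, and all 10 names had a row. The reads are small RNAs that map to these genes, and they are read here as a measure of the genes as targets of small interfering RNAs (siRNAs). The strand setting of the counting is not given, so how many of the reads are fragments of the genes' own messenger RNA is unknown. They are no measure of the level of messenger RNA or protein, or of the piRNAs these genes help to make. The 8 libraries came from whole animals in 4 groups of 2, at 20 °C. Wild-type animals of strain N2 and animals of strain YY1683 ate HT115 bacteria that carried either the L4440 vector or a construct for oma-1 double-stranded RNA. The genotype of YY1683 is written zap-1(-) in its label and zsp-1(-) in the series title, with no allele given, and it is called the zsp-1 mutant here. The stage is given as gravid adults of day 1 in one label and as young adults in the extraction text. Separate cultures are not named for the 2 libraries of any group, so the p-values speak of the spread between libraries, which may be technical.

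piRNAs of C. elegans, also called 21U-RNAs, are small RNAs of the germline that bind the Argonaute PRG-1 and mark transcripts for silencing by secondary siRNAs. Each is transcribed from a small unit of its own with help from PRDE-1, SNPC-4, TOFU-4 and TOFU-5. The capped precursor is then bound by the PETISCO complex, trimmed at both ends and methylated. The mutated gene, zsp-1 or pid-2, encodes a protein found in Z granules, which are part of the germ granules beside the nucleus, and is known for its role in inherited silencing. Germline genes are themselves broadly targeted by secondary siRNAs, and the genes of piRNA biogenesis are read here as such targets.

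The libraries held 136908 to 340932 reads, and 1 read corresponded to 3.09 to 8.72 CPM (reads scaled to a common library total, here with TMM, a method that trims extreme genes). Small RNA reads at zsp-1 itself, listed as pid-2 in the tables, had 408 ± 95.2 CPM in wild-type libraries and 31.8 ± 11.9 CPM in mutant libraries (SD, n = 4 each). Reads at oma-1 went from 29 and 35 to 5076 and 5789 in wild type and from 42 and 20 to 2541 and 3402 in the mutant when oma-1 double-stranded RNA was eaten. All 14 germline marker genes had enough reads to be tested, with 0.337% to 0.507% of reads per library in total. Of 6 body wall muscle, 7 intestine and 4 hypodermis markers 0 were tested, with 12, 13 and 1 reads over all 8 libraries. Of 6 neuron and 6 sperm markers 2 each were tested. The neuron markers held 0.00621% to 0.00973% of reads in wild type and 0.00963% to 0.0190% in the mutant, and the sperm markers 0.0196% to 0.0689% and 0.0272% to 0.0371%. The part of other tissues in the results was not tested.

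The 10 genes are protein-coding and lie on 4 chromosomes of the build WBcel235, in coordinates of the count tables. On chromosome I lie snpc-4 (8962322 to 8966129), tofu-4 (4824921 to 4826633) and tofu-5 (7069440 to 7070728). On chromosome II lie tofu-6 (5421248 to 5422737) and pid-1 (7689710 to 7690572), and on chromosome III lies henn-1 (8232651 to 8234591). On chromosome V lie prde-1 (15538244 to 15547020), ife-3 (6588 to 7822), tofu-1 (9981249 to 9982766) and parn-1 (12692486 to 12695255). None of the 10 lies on chromosome IV, which holds 14714 of the 15363 piRNA genes of the Ensembl annotation, and 0 annotated piRNA genes lie within the span of any of them. Reads were counted over exons, and the exons of 4 of the 10 overlap those of another gene. The overlap covers 80 bases of tofu-5, 76 of henn-1, 45 of ife-3 and 3 of tofu-6. The strand setting of the counting is not given, so reads in those bases are uncertain between the overlapping genes.

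The 10 genes differed widely in level. Together they held 3658 of all reads, 0.204%, and parn-1 alone held 2098 of these, or 57.4%. Levels of different genes are compared per kilobase of exon, as CPM per kb averaged over the 8 libraries. The level was 720.0 ± 153 CPM per kb at parn-1 and 129 ± 52.2 at tofu-1, followed by 99.3 ± 28.6 at tofu-4, 91.1 ± 27.1 at ife-3, 75.4 ± 20.0 at prde-1 and 59.5 ± 17.6 at snpc-4 (SD, n = 8 each). At the low end stood tofu-6 with 40.1 ± 18.6, henn-1 with 38.4 ± 6.86, pid-1 with 28.7 ± 15.3 and tofu-5 with 27.1 ± 5.67 CPM per kb. The lowest parn-1 library, at 434 CPM per kb, stood above the highest tofu-1 library, at 206. Every other pair of neighbours in this order overlapped between libraries.

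Against the 20191 genes of the table, the level per kb of parn-1 was at the 99.1 percentile and that of the lowest member, tofu-5, at the 77.4 percentile. The median over the tested genes was 59.8 CPM per kb, and 5 of the 10 members lay above it. Thus all 10 had more small RNA reads per kb than the typical gene of the table, whose median was 1.15 CPM per kb. A minimum of reads (edgeR's filterByExpr) was needed for a test, and 8 of the 10 passed it. pid-1 and tofu-5 did not, and are described by their reads.

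**Figure D1:**
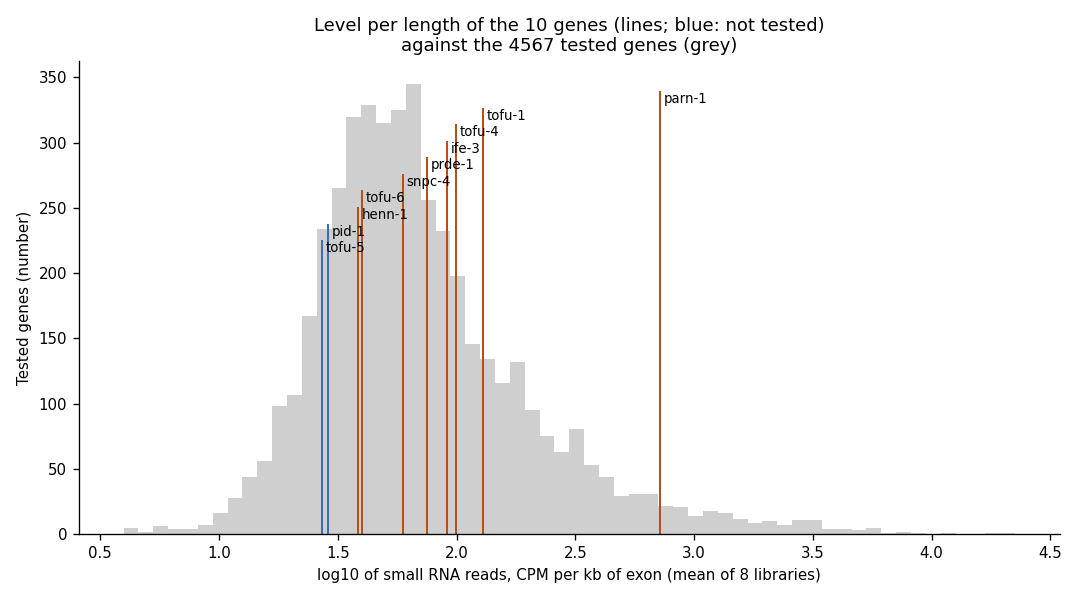
Histogram of the level per length, as log10 of CPM per kb of exon averaged over 8 libraries, for the 4567 tested genes (grey), with a vertical line for each of the 10 piRNA biogenesis genes. parn-1 stands far to the right at 720.0 CPM per kb, and pid-1 and tofu-5, which were not tested, are the lowest of the 10.

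The main comparison asked how small RNA reads differ between the zsp-1 mutant and wild type. Averaged over both foods, 1 of the 8 tested genes was called (adjusted p under 0.05, edgeR's quasi-likelihood test), against 23.1% of all 4567 tested genes. The called gene was tofu-1, where reads rose 1.88-fold in the mutant. In the rising direction the background was 11.3% of tested genes, and 11.8% fell, while 0 of the 8 members fell at an adjusted p under 0.05 or at an unadjusted one. The median log2 fold change was 0.30 over the 8 members and -0.08 over all tested genes, with 6 members above 0 and 2 below. With 1 call among 8, the members gave no larger share than all genes did.

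**Figure D2:**
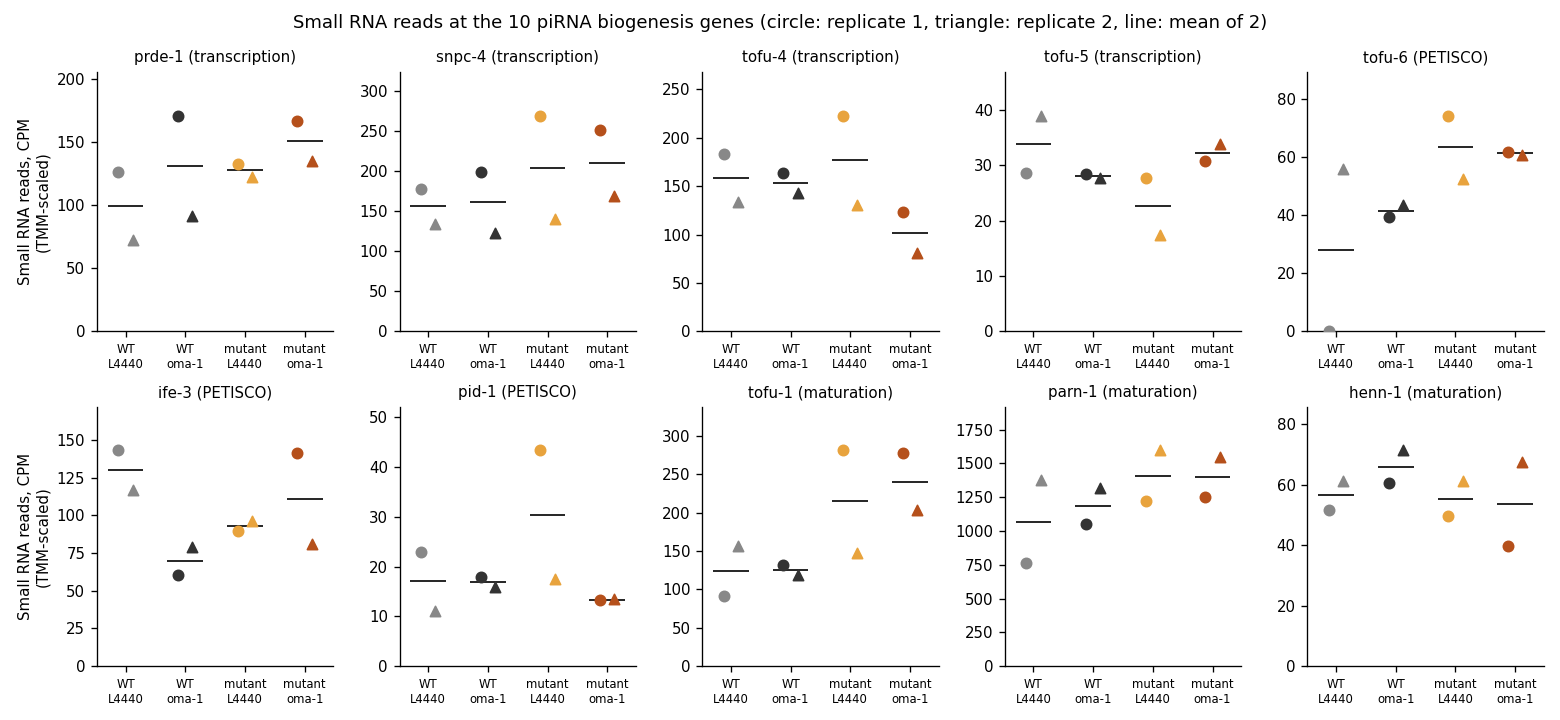
Small RNA reads in CPM on totals scaled by TMM, 1 panel for each of the 10 genes and 1 point for each of the 8 libraries, with the mean of each group as a line; each panel has its own scale from 0. At tofu-1 the mutant libraries lie between 148 and 281 CPM and the wild-type libraries between 91.7 and 156, with a small overlap.

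Among the genes of the processing steps, tofu-1 encodes a subunit of the nuclease that cuts the 5′ end of piRNA precursors. In wild type it had 16 and 28 reads on L4440 and 37 and 30 on oma-1 RNAi, which range from 91.7 to 156 CPM, both on L4440. In the mutant it had 91 and 17 reads on L4440 and 63 and 30 on oma-1 RNAi, which are 281, 148, 277 and 203 CPM. Of the mutant libraries 3 of 4 were above every wild-type library, and the exception was replicate 2 on L4440, at 148 CPM. Wild type averaged 125 ± 26.8 CPM and the mutant 227 ± 64 CPM (SD, n = 4 each). On the log2 scale the mutant was higher by 0.91 (SE 0.26, 95% interval 0.38 to 1.44, adjusted p = 0.00965, edgeR's quasi-likelihood test). In whole animals, a change in the number of cells of a type and a change in small RNA per cell cannot be told apart.

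The size of the rise at tofu-1 was close on both foods but passed on neither alone. The log2 fold change was 0.87 on L4440 (95% interval 0.10 to 1.64, adjusted p = 0.134 in edgeR's test) and 0.95 on oma-1 RNAi (0.21 to 1.69, adjusted p = 0.0788 in edgeR's test). It also differed between the numbered libraries. Between libraries numbered 1 the mutant was higher by 1.52 on L4440 and 1.02 on oma-1 RNAi, in log2 CPM with a prior count of 2. Between libraries numbered 2 the difference was -0.07 on L4440 and 0.73 on oma-1 RNAi. The call of the averaged contrast was lost in edgeR's test without mutant replicate 1 on L4440 (log2 0.62, adjusted p = 0.215) or mutant replicate 1 on oma-1 RNAi (0.80, adjusted p = 0.0645), and with DESeq2 (0.93, adjusted p = 0.0532). With the replicate number as a block it held (0.91, adjusted p = 0.000299 in edgeR's test), and tofu-1 was then called on L4440 (adjusted p = 0.0295) and on oma-1 RNAi (adjusted p = 0.00784).

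parn-1 encodes the exonuclease that trims the 3′ end of piRNA precursors, and it had the most reads of the 10 genes. Wild-type libraries had 133 and 247 reads on L4440 and 295 and 333 on oma-1 RNAi, which are 762, 1377, 1050.4 and 1319 CPM. Mutant libraries had 394 and 183 reads on L4440 and 284 and 229 on oma-1 RNAi, which are 1218, 1596, 1251 and 1547 CPM. The genotypes overlapped, with a wild-type mean of 1127 ± 282 CPM and a mutant mean of 1403 ± 196 CPM (SD, n = 4 each). The log2 fold change of 0.31 was not called (95% interval -0.16 to 0.78, adjusted p = 0.418 in edgeR's test).

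In all 4 groups the parn-1 library numbered 1 was lower than the library numbered 2. With the replicate number as a block, parn-1 was called (log2 0.33, SE 0.11, adjusted p = 0.0188 in edgeR's test), so that 2 of the 8 members were called in that fit, against 29.8% of all tested genes. Within a number, the mutant was higher by 0.67 and 0.21 on L4440 and by 0.25 and 0.23 on oma-1 RNAi. These are in log2 CPM with a prior count of 2, for numbers 1 and 2 in turn. No label makes libraries of 1 number a pair. The share of all tested genes with 1 sign in all 4 differences was not counted.

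henn-1 encodes the methyltransferase that modifies the 3′ end of piRNAs. Reads numbered 9, 11, 17 and 18 in wild-type libraries and 16, 7, 9 and 10 in mutant libraries, with L4440 first. The levels were 61.2 ± 8.07 and 54.4 ± 12.4 CPM (SD, n = 4 each), ranges that overlapped. Between genotypes the log2 fold change was -0.22 (95% interval -0.92 to 0.48, adjusted p = 0.769 in edgeR's test), an interval that runs from 0.530-fold to 1.40-fold.

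**Figure D3:**
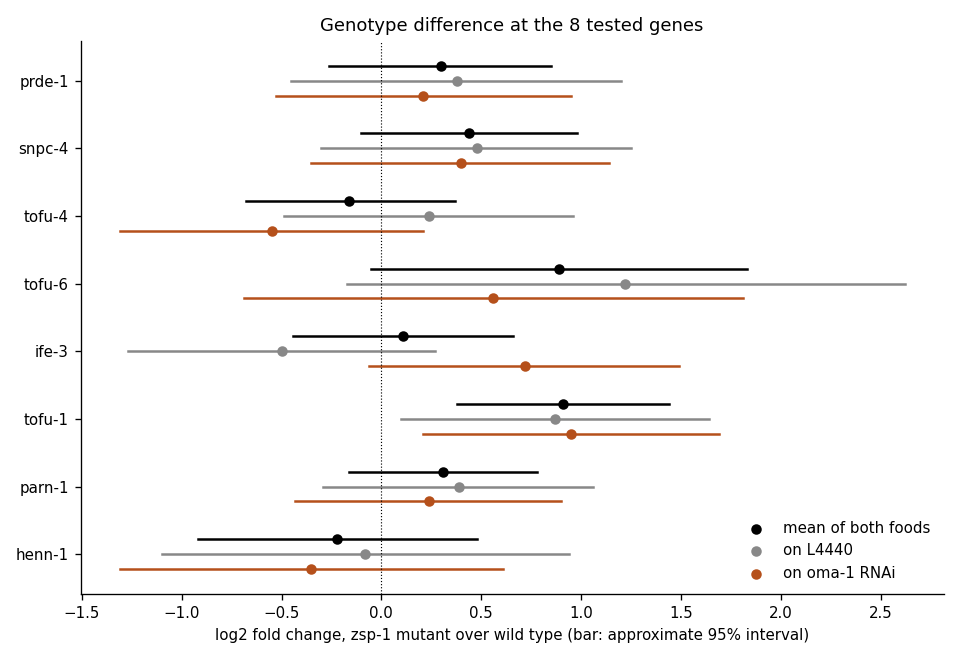
Log2 fold change of small RNA reads, zsp-1 mutant over wild type, for the 8 tested genes as the mean of both foods and on each food, with approximate 95% intervals. The intervals of tofu-1 lie above 0 in all 3 contrasts, and for the mean of both foods the interval of each of the other genes spans 0.

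Of the genes of piRNA transcription, none was called between genotypes, at an adjusted or an unadjusted p under 0.05 in edgeR's test or an adjusted one in DESeq2. prde-1 encodes a nuclear factor needed for piRNA precursors. It had 126 and 72.5 CPM on L4440 and 171 and 91.1 on oma-1 RNAi in wild type, and 133, 122, 167 and 135 in the mutant. The mutant libraries lay within the wild-type range, and the difference in log2 was 0.30 (95% interval -0.26 to 0.85, adjusted p = 0.545 in edgeR's test).

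snpc-4 encodes a subunit of the complex that activates small nuclear RNA genes, which also binds piRNA loci. Wild-type libraries had 178 and 134 CPM on L4440 and 199 and 123 on oma-1 RNAi, and mutant libraries 269, 139.5, 251 and 169. Of the mutant libraries 2 of 4, those numbered 1, were above every wild-type library. Its log2 fold change was 0.44 (95% interval -0.10 to 0.98, adjusted p = 0.286 in edgeR's test). Its pooled reads were 142 in wild type and 185 in the mutant. Within a number the mutant was higher by 0.57 and 0.06 on L4440 and by 0.32 and 0.43 on oma-1 RNAi in log2 CPM. As at parn-1, the share of all tested genes with 1 sign in all 4 differences was not counted. With the replicate number as a block snpc-4 was not called either (log2 0.40, SE 0.19, adjusted p = 0.121 in edgeR's test).

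tofu-4 and tofu-5 encode DNA-associated partners of PRDE-1 and SNPC-4. tofu-4 had 183 and 134 CPM on L4440 and 164 and 143 on oma-1 RNAi in wild type, and 223, 131, 123 and 81.1 in the mutant. The genotypes overlapped on L4440. On oma-1 RNAi both mutant libraries were below both wild-type ones, but the share of all tested genes apart in this way was not counted. The log2 fold change was 0.24 on L4440 (95% interval -0.49 to 0.96). It was -0.55 on oma-1 RNAi (-1.31 to 0.21, adjusted p = 0.444 in edgeR's test), and averaged over both it was -0.16 (adjusted p = 0.779 in edgeR's test).

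tofu-5 had too few reads for a test, with 5, 7, 8 and 7 in wild-type and 9, 2, 7 and 5 in mutant libraries. The ratio of pooled read shares, mutant over wild type, was 0.884, with an exact 95% interval of 0.484 to 1.6 that covers counting error only. Ratios across this interval are compatible with the counts, so neither a rise nor a fall is shown.

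The PETISCO genes were not called either. PETISCO is a complex that binds and stabilises capped piRNA precursors in the cytoplasm. tofu-6, which encodes a core subunit, had 0 and 10 reads on L4440 and 11 and 11 on oma-1 RNAi in wild type, and 24, 6, 14 and 9 in the mutant. The count of 0 in wild-type replicate 1 on L4440 allows a level of up to 17.2 CPM, at 3 reads. The other wild-type libraries had 55.7, 39.2 and 43.6 CPM, and the mutant libraries had 74.2, 52.3, 61.6 and 60.8. Of the mutant libraries 3 of 4 were above every wild-type one.

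At tofu-6 wild type averaged 34.6 ± 24.1 CPM and the mutant 62.2 ± 9.01 (SD, n = 4 each). The log2 fold change was 0.89 (SE 0.46, 95% interval -0.05 to 1.83, adjusted p = 0.189 in edgeR's test), close to that of tofu-1 with a wider error. Without wild-type replicate 2 on L4440 the only library left in that group is the one at 0, and the fit then gave 3.73 (adjusted p = 0.000661), a value set by that 0. Without wild-type replicate 1 on L4440 the log2 fold change was 0.45.

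ife-3 encodes a cap-binding protein of the eIF4E family, and IFE-3 joins PETISCO at the cap of the precursor. It had 143 and 117 CPM on L4440 and 60.5 and 79.2 on oma-1 RNAi in wild type, and 89.7, 95.9, 141 and 81.1 in the mutant. In wild type both libraries on oma-1 RNAi were below both on L4440, and in the mutant the foods overlapped. The wild-type food difference was not called (adjusted p = 0.999 in edgeR's test), and the share of all tested genes apart in this way was not counted. Averaged over both foods the log2 fold change was 0.11 (95% interval -0.44 to 0.66), with a mutant mean of 102 ± 26.7 CPM (SD, n = 4). The genotype difference was -0.50 on L4440 (95% interval -1.27 to 0.27) and 0.72 on oma-1 RNAi (-0.06 to 1.49).

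pid-1 encodes the PETISCO partner that directs the complex to piRNA precursors, and it is the shortest of the 10, with 675 bases of exon. Wild-type libraries held 4, 2, 5 and 4 of its reads, and mutant libraries 14, 2, 3 and 2. The ratio of pooled shares was 1.45 with an exact 95% counting interval of 0.714 to 3.03. Of the 21 mutant reads 14 came from replicate 1 on L4440, the library with the most reads. Scaled to depth it still had 43.3 CPM, against 13.2 to 17.4 in the other mutant libraries.

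Genotype was also tested on each food, with different libraries on each side but 1 shared fit. On L4440, 0 of the 8 members were called in edgeR's test, against 16.4% of tested genes (8.74% higher and 7.66% lower, or 399 and 350 genes, and 310 and 172 with DESeq2). There 1 member had an unadjusted p under 0.05, as did 1106 of the 4567 tested genes. On oma-1 RNAi 0 members were called as well, against 15.7% of tested genes (8.36% higher and 7.38% lower). Here too 1 member had an unadjusted p under 0.05, as did 1025 of the 4567 tested genes. DESeq2 also called 0 on each food. The member with an unadjusted p under 0.05 was tofu-1 on both foods.

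The response to oma-1 double-stranded RNA was the second comparison the design holds. In wild type 0 of the 8 members were called by edgeR's test or DESeq2, against 0.0438% of tested genes. In the mutant 0 were called by either, against 0.0438%. Member log2 fold changes ran from -0.90 to 0.54 in wild type and from -0.83 to 0.32 in the mutant. The lowest in wild type was ife-3 (95% interval -1.67 to -0.13, unadjusted p = 0.0244 and adjusted p = 0.999 in edgeR's test), the 1 member under 0.05 before adjustment. Of the 4567 tested genes 135 were under it in wild type. The lowest in the mutant was tofu-4 (-1.59 to -0.07, unadjusted p = 0.0343 in edgeR's test, not called after adjustment), again the 1 member under 0.05 before adjustment. In the mutant 129 of the tested genes were under it.

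The difference between the 2 responses was tested as an interaction, and 0 of the 8 members were called by edgeR's test or DESeq2, against 0% of all tested genes. The largest value was at ife-3, with a log2 difference of 1.22 (95% interval 0.12 to 2.31, unadjusted p = 0.0313 in edgeR's test, not called after adjustment). It was the 1 member with an unadjusted p under 0.05, where 113 of the 4567 tested genes had one. tofu-4 had -0.78 (-1.84 to 0.27) and tofu-1 had 0.08.

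The libraries numbered 1 and 2 differed in the same direction in all 4 groups at 5 of the 8 tested members. At prde-1, snpc-4 and tofu-4 library 1 was higher in each group, by 0.49, 0.62 and 0.47 on average in log2 CPM. At parn-1 and henn-1 it was lower in each group, with average differences of -0.47 and -0.33. Over all tested genes 12.6% were higher in library 1 of every group and 17.7% lower. Depth differed between the numbers too, with 340932 and 136908 reads in the mutant on L4440, 228338 and 172615 in the mutant on oma-1 RNAi, and closer totals in wild type. The part of depth in these differences was not tested.

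**Figure D4:**
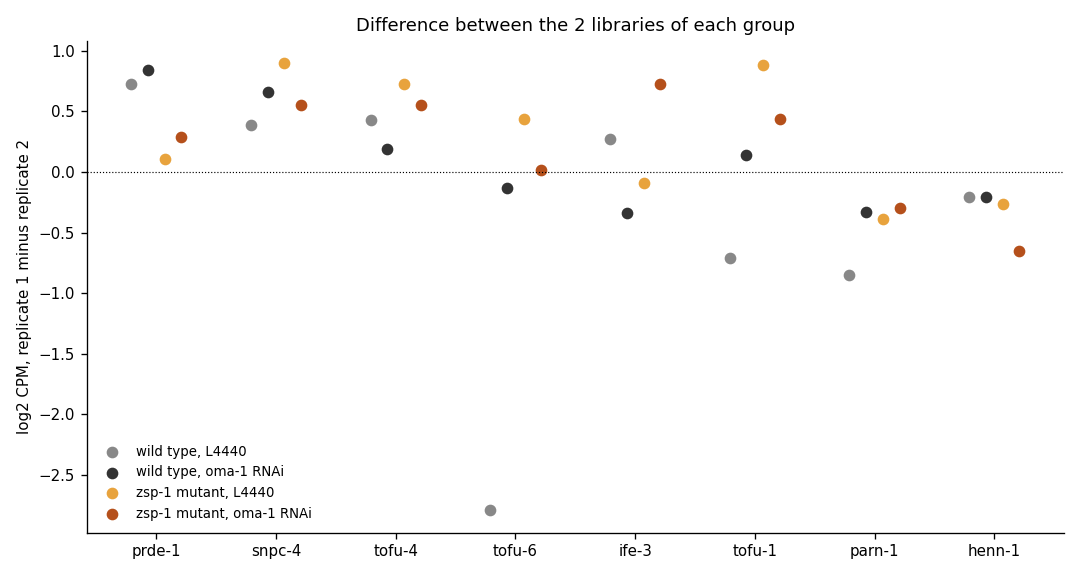
Difference in log2 CPM (prior count 2) between the library numbered 1 and the library numbered 2 of each group, for the 8 tested genes, with 1 point per group. prde-1, snpc-4 and tofu-4 lie above 0 in all 4 groups and parn-1 and henn-1 below 0, while the point of -2.79 at tofu-6 comes from a library with 0 reads.

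Other genes of the piRNA pathway gave a like picture. Of 19 listed, 17 had a row, 12 passed the filter, and in the averaged genotype contrast 1 rose, 0 fell and 11 were not called by edgeR's test. Over all tested genes 23.1% were called in that contrast, with 11.3% higher and 11.8% lower. The median log2 fold change of the 12 was 0.10. prg-1, the Argonaute that carries piRNAs, had 1293 ± 205 CPM in wild-type libraries and 1325 ± 176 in mutant libraries (SD, n = 4 each), with a log2 fold change of 0.04 (95% interval -0.40 to 0.48). Per kb of exon its level of 490.0 CPM over the 8 libraries lay below that of parn-1 and above those of the other 9 members. The PETISCO core genes pid-3 (log2 -0.00) and erh-2 (-0.15, 95% interval -0.95 to 0.65) were not called. By food, the log2 fold change of pid-3 was 0.16 on L4440 (-0.63 to 0.95) and -0.16 on oma-1 RNAi (-0.90 to 0.59). tost-1, whose protein takes the place of PID-1 in another form of PETISCO, gave 14 wild-type and 12 mutant reads and was not tested.

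The 1 called gene of this list was snpc-3.3, listed as a pseudogene in RefSeq's gene table and named after a subunit family of the small nuclear RNA activating complex. It had 115, 61.3, 171 and 55.5 CPM in wild type and 254, 148, 203 and 203 in the mutant, ranges that overlapped. The log2 fold change was 1.04 (95% interval 0.42 to 1.66, adjusted p = 0.0111 in edgeR's test). The call was lost without mutant replicate 1 on L4440 (adjusted p = 0.123) or wild-type replicate 2 on oma-1 RNAi (adjusted p = 0.0691). Its reads may be shared with the other snpc-3 genes, since the treatment of reads with several matches is not given. Of the remaining family members, snpc-1.1 (log2 0.74, 95% interval -0.14 to 1.62), snpc-1.2 (-0.04, -0.54 to 0.46) and snpc-3.1 (-0.08, -0.83 to 0.67) were tested and not called. Too few reads for a test fell on snpc-1.3, snpc-3.2 and snpc-3.4. Their ratios of pooled shares, mutant over wild type, were 0.472 (exact 95% counting interval 0.129 to 1.47), 0.643 (0.296 to 1.34) and 0.577 (0.238 to 1.32). Without mutant replicate 1 on L4440, snpc-1.1 was called in place of snpc-3.3 (adjusted p = 0.0417 in edgeR's test). tofu-2 and slfl-3, whose products act with TOFU-1 in the 5′ nuclease, had log2 fold changes of 0.40 (-0.21 to 1.02) and 0.15 (-0.40 to 0.71) and were not called.

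The genes whose profile was most like that of tofu-1 were found among 4559 other tested genes by the root mean square distance of log2 CPM over the 8 libraries, each gene centred on its own mean. The nearest were C03H5.3 at 0.18, R10E4.9 at 0.19 and C29H12.2 at 0.20, where the median distance was 0.66. C03H5.3 had 52.9 ± 12.6 CPM in wild type and 88.1 ± 27 in mutant libraries, and R10E4.9 had 65.8 ± 14.2 and 106 ± 27.6 (SD, n = 4 each), and neither was called (adjusted p = 0.0739 and 0.0526 in edgeR's test). C29H12.2, which was called (adjusted p = 0.00266 in edgeR's test), had 110.4 ± 22.6 CPM in wild-type libraries and 219.6 ± 42.8 in mutant ones (SD, n = 4 each). These genes were picked for a profile like that of tofu-1, its rise in the mutant included. Their higher mutant levels follow from that choice and are no separate result. Within the piRNA biogenesis genes snpc-4 was nearest to tofu-1 at 0.38 and tofu-4 farthest at 0.67.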

How the data were processed

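Small RNAs of about 18 to 35 nt were cut from a gel of 20 µg total RNA and cloned without need of a 5′ monophosphate, per the labels' protocols. The authors deposited raw counts of reads per gene, 1 table per library, per the file headers. cutadapt 1.14, TopHat2 2.1.1 and featureCounts 1.6.0 with build WBcel235 are named in the submitters' processing notes. The strand setting, any length filter and the handling of multi-mapped reads: not given in the sources used here. Exonic gene lengths come from the same deposited tables.

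These counts were tested with edgeR 4.0.16 (R 4.3.3). filterByExpr (minimum count 10) left 4567 genes. CPM use the reads of these genes, scaled by TMM. All 8 libraries entered 1 quasi-likelihood fit with a mean for each of the 4 groups (4 residual degrees of freedom), and p-values were adjusted by Benjamini-Hochberg over all tested genes. The SE is the size of the log2 fold change divided by the root of its F value, and 95% intervals are approximate for low counts. This SE is unstable very near a log2 fold change of 0, so no interval is printed for pid-3 averaged over both foods. Intervals of pooled reads and floors of 3 reads cover counting error only, since reads carry no molecular identifiers. The test was tested on simulated data.

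Alternatives were library totals, DESeq2 1.42.0, no filter, a replicate block, each library left out and single-food fits. Deviations of same-numbered libraries correlated at r = 0.171 to 0.347 in all 6 pairs of groups, although no label ties a number to a culture or day. Blocked values are therefore printed where they change a call, and also for snpc-4 and the averaged contrast of tofu-1, where they do not.

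All 10 genes are named. From 19 other pathway genes, called ones, prg-1 and the PETISCO genes were to be named, and others were named after their values were seen. The members and lists were chosen with earlier results of these data known. Protein and gene sequences were not used here.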

Additional observations from a re-analysis of the deposited data

Results flagged for a closer look

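A library far from the other 3 of its genotype was looked for at each of the 10 genes, in 20 sets of 4 libraries, of which chance would mark about 1. In 2 sets 1 library stood apart. At tofu-5 the wild-type replicate 2 on L4440 had 39.0 CPM, from 7 reads, while the other wild-type libraries had 27.7 to 28.7 CPM, from 5 to 8 reads. A read is 5.57 CPM in the marked library, so the gap is a matter of few reads. At pid-1 the mutant replicate 1 on L4440 had 43.3 CPM, from 14 reads, while the other mutant libraries had 13.2 to 17.4 CPM. Neither gene had enough reads to be tested.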

How the results depend on the processing

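The number of members called between genotypes, 1 for the mean of both foods, was 0 with DESeq2 (17.3% of all tested genes were called), 2 with the replicate block (tofu-1 and parn-1, against 29.8%), and 0 to 2 with single libraries left out (18.4% to 21.3%). On L4440 it was 0, but 1 with the replicate block (22.4%). Without wild-type replicate 2 on L4440, the only library left in that group has 0 tofu-6 reads. With libraries left out, the number called on L4440 moved in this fit only. It then included tofu-6, as did the number for the mean of both foods. On oma-1 RNAi it was 0, but 1 with the replicate block (21.8%) and 0 to 1 with libraries left out (9.5% to 15.6%). The call at tofu-1 was lost in 3 of 12 alternatives, with a log2 fold change from 0.62 to 1.16. No member was called in either RNAi response or their difference under any alternative run. Among other pathway genes the count of 1 was 0 to 1 with libraries left out, and the gene was snpc-1.1 in place of snpc-3.3 without mutant replicate 1 on L4440. With 1 library left out in turn, the uncalled log2 fold change of tofu-4 ran from -0.39 to 0.01 and turned when wild-type replicate 1 (0.01) or mutant replicate 2 (0.00) of the L4440 libraries was left out. That of ife-3 ran from -0.12 to 0.29 and turned when mutant replicate 1 of the oma-1 RNAi libraries was left out (-0.12). Scaling by library totals moved the median log2 fold change of all tested genes on L4440 from -0.07 to -0.17 and changed no call among the members. Without the filter pid-1 had a log2 fold change of 0.38 (SE 0.59) and tofu-5 one of -0.09 (SE 0.47), not called. Depth limits all genes with few reads.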
